A study of Homo sapiens with 4 samples.

Results

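The expression of 10 epithelial keratin genes was followed in HML58-3 cells: KRT7, KRT8, KRT80 and KRT81 of the type II keratins, and KRT15, KRT17, KRT18, KRT19, KRT20 and KRT23 of the type I keratins. They were chosen by name, and their probes were found through the RefSeq accession that the array design gives for each probe. All 10 genes were on the array, with 14 probes of 1 spot each, among 25006 named genes and 58201 gene probes in all. KRT8 had 3 probes, KRT18 and KRT23 had 2 each, and the other 7 genes had 1. Where a gene had several probes, the brightest was used for counts.

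HML58-3 is a derivative of the colon cancer cell line HCT116 that carries a luciferase reporter under a marker promoter silenced by methylation. The study asked how gene expression responds to DNA demethylating drugs. Cells were seeded on day 0, were given 1 of the 3 drugs (DAC, OR-2003 or OR-2100, each at 1 μM) or mock treatment on day 1, and were collected on day 5. DAC is decitabine, a nucleoside analog that traps DNA methyltransferases once it is built into DNA, and OR-2003 and OR-2100 are compounds that the study derived from it. All 4 groups were the same cell line, and each was measured on 1 one-colour Agilent array. There were therefore no replicates, no difference between conditions could be tested, and no p-value is given.

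Keratins are the intermediate filament proteins of epithelial cells. A type I keratin pairs with a type II keratin to build a filament, and the filaments join neighbouring cells through desmosomes. KRT8, KRT18 and KRT19 are the main keratins of simple epithelia such as the lining of the gut, KRT20 marks differentiated cells of the intestinal lining, and KRT7 belongs to ducts and other simple epithelia and is usually scarce in the colon.

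Sequence before the start site was at hand for 2 of the 10 genes, and is shown because the drugs lower DNA methylation at CG dinucleotides. In the RefSeq table of build GRCh38.p14, the 250 bases before the KRT20 start lay at chr17:40885243-40885492 and those before the KRT8 start at chr12:52926470-52926719, both on the minus strand. They are given 5′ to 3′ with each CG in capitals. KRT8 has other RefSeq start sites that were not analysed here.
KRT20: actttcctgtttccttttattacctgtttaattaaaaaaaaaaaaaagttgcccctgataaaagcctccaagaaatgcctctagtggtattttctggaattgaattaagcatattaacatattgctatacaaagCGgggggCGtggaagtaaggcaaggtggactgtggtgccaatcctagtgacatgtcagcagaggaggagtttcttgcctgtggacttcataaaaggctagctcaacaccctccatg
KRT8: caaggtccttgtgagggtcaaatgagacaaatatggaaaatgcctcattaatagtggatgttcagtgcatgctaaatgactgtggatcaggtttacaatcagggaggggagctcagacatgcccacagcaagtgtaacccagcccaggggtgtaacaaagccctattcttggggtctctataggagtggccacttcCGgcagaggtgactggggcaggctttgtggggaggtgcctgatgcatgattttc

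These stretches were poor in CG. With the first 50 bases of the gene added, each 300-base window held 2 CG, and 11.0% of the 35116 promoters in the table held fewer. The median over all promoters was 14. The 34 keratin genes in the table held 0 to 8, with a median of 2. Motifs were searched by their letters on both strands, and no motif contains another. The TATA box letters TATAAA stood in 11.5% of all promoters, the GC box letters GGGCGG in 45.0% and the AP-1 letters TGANTCA in 7.71%. None of the 3 stood in the KRT8 or the KRT20 window. The windows of KRT7, KRT15, KRT17, KRT18, KRT19, KRT23, KRT80 and KRT81 were not analysed here.

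Levels are log2 intensities after each array was scaled so that the 75th percentile of its gene probes was 0. Of the 10 keratin genes, 8 were well above background on all 4 arrays. The remaining 2, KRT17 and KRT20, were not well above background with mock treatment but were so with each drug. A gene was called induced where its level with a drug was at least 2-fold that with mock and no lower than -1, the level of positive expression in the study's methods. It was called reduced where it was at least 2-fold lower with the drug and no lower than -1 with mock. Errors given as ± are those of the scanner software for 1 spot. They and the spread of repeated spots, a median SD of 0.058 to 0.066 over the arrays, cover technical error only. For bright probes the software error was the same on every array, 0.144 for a level and 0.204 for a difference. It is therefore a fixed value and not a measured spread. In RNA from a whole culture, more cells with a transcript and more transcript per cell cannot be told apart.

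**Figure D1:**
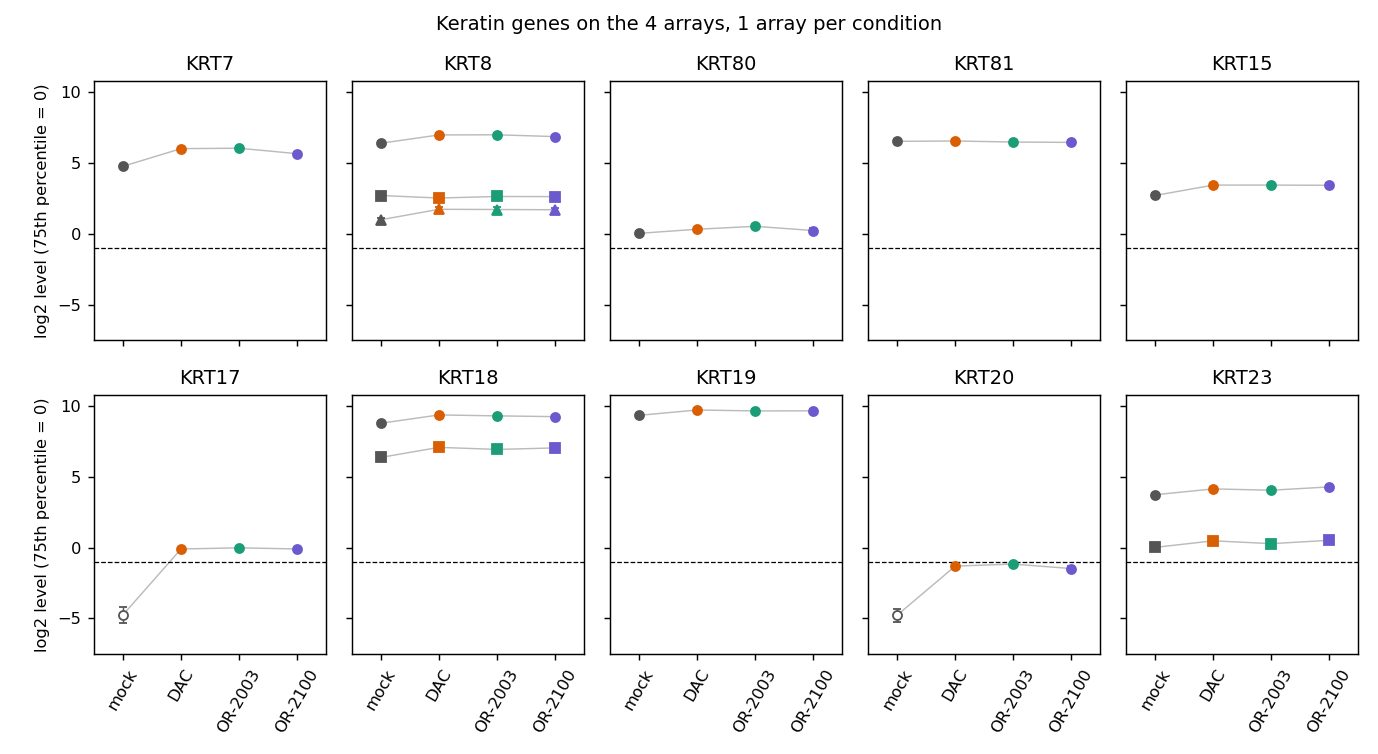
Log2 level (vertical axis, 75th percentile of each array at 0) of each keratin gene on the mock, DAC, OR-2003 and OR-2100 arrays (horizontal axis). Circles are the probe used for counts, squares and triangles other probes of the gene, open symbols probes not well above background, bars the error of the scanner software, and the dashed line the level of -1. KRT17 and KRT20 lie below -4 on the mock array, and the other 8 genes lie above 0 on all arrays.

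KRT17 and KRT7 were the keratins that the drugs induced, and none of the 10 was reduced. DAC induced 2 of 10, OR-2003 induced 2 of 10 and OR-2100 induced 1 of 10. Among all named genes the induced share was 5.77% with DAC, 5.89% with OR-2003 and 5.81% with OR-2100, and the reduced share was 5.96%, 6.05% and 6.82%. Among named genes that reached -1 on either array the induced share was 10.9%, 11.1% and 11.0%. A count of 2 genes in 10 is too small to set against these shares. The calls near the thresholds moved with the scaling: with the 75th percentile taken over probes well above background, KRT7 was called with each drug and KRT17 with none, since it then lay under -1.

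KRT17 is a type I keratin of basal and appendage cells of the skin that wounded or proliferating keratinocytes make in quantity. Its level was -4.75 on the mock array, where it was not well above background, -0.10 with DAC, -0.01 with OR-2003 and -0.09 with OR-2100. All 3 drug arrays stood far above the mock array and close to one another. Mock gives only a floor, taken as the lowest level well above background on that array. Against this floor KRT17 was at least 18.2-fold higher with DAC, at least 19.3-fold with OR-2003 and at least 18.3-fold with OR-2100. Folds written as "at least", here and for other genes, hold under the main background correction only. The size depended on the background correction: under normexp, a model that keeps dim spots positive, the log2 differences were 1.52, 1.54 and 1.52. KRT17 has near-identical relatives, and the files hold no probe sequence, so cross-hybridization was not tested. The probe for its pseudogene KRT17P2 went from -4.70 on the mock array to between -1.23 and -0.96 with the drugs, and the probe for KRT17P1 from -4.48 to between -1.93 and -1.60.

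KRT7, the type II keratin of ducts, stood at 4.78 on the mock array, 6.03 with DAC, 6.06 with OR-2003 and 5.67 with OR-2100. The 3 drug arrays were all above mock, and OR-2100 was the lowest of them. The log2 difference from mock was 1.25 ± 0.20 with DAC and 1.28 ± 0.20 with OR-2003, or 2.37-fold and 2.42-fold. With OR-2100 it was 0.89 ± 0.20, or 1.86-fold, and did not reach the 2-fold threshold. It did so after quantile normalization and under the scaling to probes well above background. Of 15976 other genes well above background on all 4 arrays, those with the differences closest to KRT7 were LINP1, KATNAL1 and PAFAH1B1, at distances of 0.058, 0.081 and 0.105 over the 3 log2 differences. LINP1, a long noncoding RNA, differed from mock by 1.28, 1.23 and 0.89, KATNAL1, a katanin-like protein, by 1.24, 1.21 and 0.93, and PAFAH1B1, a dynein regulator, by 1.18, 1.20 and 0.91.

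KRT20, like KRT17, was well above background with the drugs alone. It stood at -4.76 on the mock array, where it was not well above background, -1.30 with DAC, -1.16 with OR-2003 and -1.48 with OR-2100. The difference was at least 7.90-fold with DAC, at least 8.71-fold with OR-2003 and at least 7.00-fold with OR-2100. No array reached -1, so KRT20 was not called induced with any drug. It was called with all 3 under median scaling, which raised its level past -1, and without a level threshold. Under normexp its log2 differences were 0.85, 0.91 and 0.77.

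**Figure D2:**
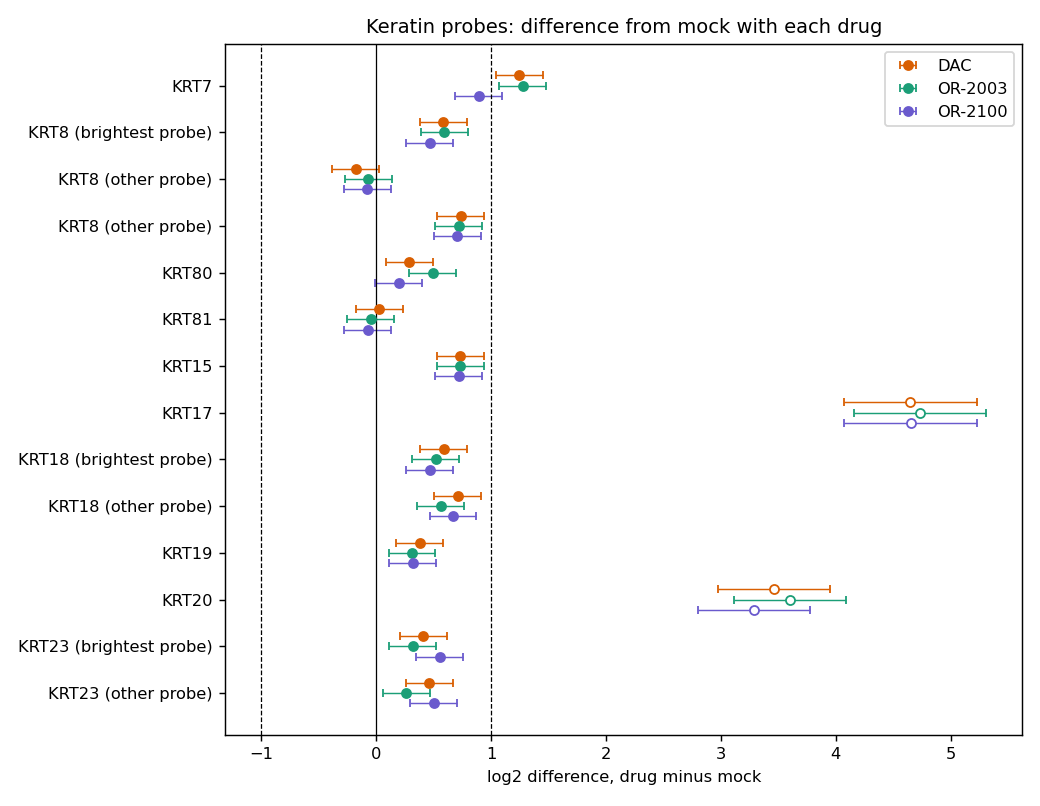
Log2 difference from mock (horizontal axis) of each of the 14 keratin probes (vertical axis) with each drug, and bars are the error of the difference by the scanner software. Open symbols are probes not well above background with mock, and dashed lines mark 2-fold. KRT17 and KRT20 lie beyond 3, KRT7 lies near 1, KRT81 and 1 probe of KRT8 lie at 0, and the other probes lie between 0.20 and 0.74.

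KRT8 and KRT18, partners in the filaments of simple epithelia, differed from mock by about the same amount. KRT8 stood at 6.41 on the mock array, 7.00 with DAC, 7.00 with OR-2003 and 6.88 with OR-2100, and the differences were 0.59, 0.59 and 0.47, each ± 0.20. KRT18 stood at 8.78, 9.37, 9.30 and 9.25, with differences of 0.59, 0.52 and 0.46. All 3 drug arrays were above mock for both genes, and neither reached 2-fold, though after quantile normalization KRT18 did with DAC, at 1.05, and OR-2100, at 1.01.

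The other probes of these genes did not all follow. A dimmer KRT8 probe stood at 1.01 on the mock array and differed by 0.74, 0.72 and 0.70. The KRT8 probe named for a noncoding transcript variant stood at 2.72 and differed by -0.18, -0.07 and -0.08. These differences were smaller than the error of 0.20, so this KRT8 probe showed no rise. The mean over the KRT8 probes gave 0.38 with DAC. The second KRT18 probe stood at 6.37 and differed by 0.71, 0.56 and 0.67, close to the first. A probe for the pseudogene KRT18P55, which resembles KRT18, differed by 0.85, 0.76 and 0.76.

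KRT19 is the smallest type I keratin and lacks most of the tail domain. It stood at 9.34 on the mock array, 9.72 with DAC, 9.65 with OR-2003 and 9.66 with OR-2100. The differences of 0.38, 0.31 and 0.32 were less than 2 of the software's fixed errors. A probe for its pseudogene KRT19P2 differed by 0.37, 0.26 and 0.29.

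KRT15, a type I keratin of basal cells in stratified epithelia, stood at 2.72 on the mock array, 3.45 with DAC, 3.45 with OR-2003 and 3.44 with OR-2100. The drug arrays were above mock and nearly level with one another. The differences were 0.73, 0.73 and 0.72, or 1.66-fold, 1.66-fold and 1.65-fold. KRT23, a type I keratin, stood at 3.73, 4.14, 4.05 and 4.29, and differed by 0.41, 0.32 and 0.55. Its second probe stood at 0.02 on the mock array and differed by 0.46, 0.26 and 0.50, so that both probes were highest with OR-2100.

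KRT80, a type II keratin found in many epithelia, stood just above 0: 0.05 on the mock array, 0.34 with DAC, 0.54 with OR-2003 and 0.25 with OR-2100. Its differences were 0.29, 0.49 and 0.20. KRT81, a keratin of the hair cortex, showed nearly the same level on each array, at 6.54, 6.57, 6.49 and 6.47. Its differences of 0.03, -0.05 and -0.07 were smaller than the error, and their sign turned with the scaling under 3, 2 and 2 of 9 alternatives for DAC, OR-2003 and OR-2100. KRT81 is close in sequence to KRT83 and KRT86, so its probe may read more than 1 gene.

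Over the 10 genes, 10 were higher than mock with DAC, 9 with OR-2003 and 9 with OR-2100. With each drug 7 were higher by over 2 software errors and 0 were lower by as much. The share of all named genes higher than mock was not counted. The median log2 difference was 0.59 with DAC, 0.56 with OR-2003 and 0.51 with OR-2100. Over all named genes it was -0.12, -0.09 and -0.23, and over named genes that reached -1 on either array -0.17, -0.17 and -0.20. The scaling set this baseline, and it moved all genes of an array together. Over the settings tried, the number of keratin genes above mock was 9 or 10 with each drug, and the gene below mock was KRT81.

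The 3 drugs were compared with one another at the same dose and time in 3 pairs. Of the 10 genes, 9 reached -1 on either array, and 0 of them were 2-fold apart in any pair. Over all named genes 0.008% were 2-fold apart between DAC and OR-2003, 0.008% between DAC and OR-2100 and 0.004% between OR-2003 and OR-2100, so the count of 0 says little about keratins. The largest difference between DAC and OR-2003 was in KRT80, at 0.20 ± 0.20. Between OR-2100 and the others it was in KRT7, at -0.35 ± 0.20 against DAC and -0.38 ± 0.20 against OR-2003. The central 95% of probes at this level ran from -0.23 to 0.25 for OR-2003 minus DAC, from -0.29 to 0.35 for OR-2100 minus DAC and from -0.32 to 0.33 for OR-2100 minus OR-2003. KRT7 lay outside the range for both of its pairs, and KRT80 lay inside. Each was picked as the largest of 9 genes, while the ranges describe single probes. Such a pick falls outside more readily, so KRT7 is not read as set apart. With 1 array per drug these differences have no replicate check, and the 3 comparisons with mock share 1 mock array.

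Among 42 other type I and type II keratin genes on the array, the genes called induced were all type I, and the call needed a level of -1. Of 21 other type I keratins, 5 were induced by all 3 drugs and 0 were reduced. Each drug induced 5.77% to 5.89% of all named genes, and 10.9% to 11.1% of those that reached -1 on either array. The share of named genes called with all 3 drugs was not counted. The 5 were KRT9, a keratin of palms and soles, KRT12 of the cornea, KRT14 of basal keratinocytes, and KRT31 and KRT32 of hair. KRT12 stood at -6.48 on the mock array, not well above background, and was at least 81.4-fold higher with DAC, at least 79-fold with OR-2003 and at least 75-fold with OR-2100. KRT9 stood at -1.69 and differed by 3.52, 3.73 and 3.46. KRT32 stood at -2.31 and differed by 3.16, 3.10 and 3.10, and KRT31 stood at -2.68 and differed by 2.50, 2.36 and 2.26. Not called was KRT10, the partner of KRT1 in the upper skin layers, which differed by 0.22, 0.23 and 0.12. The list medians were 1.15, 0.98 and 0.77. Each was the value of KRT38 or KRT36, which were well above background on no array, so the medians are not measured sizes. Under the scaling to probes well above background 2 of the 5 calls remained.

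Of 21 other type II keratins, 0 were induced and 0 were reduced by any drug. On no array were 7 of them well above background, KRT5 and KRT1 included. The list medians were -0.11, -0.02 and -0.10, the values of KRT82, KRT2 and KRT76, which were also well above background on no array. These medians are therefore not measured sizes. The type II keratins that reached -1 on any array were the hair keratins KRT83, KRT85 and KRT86, together with KRT3, KRT73 and KRT78. KRT83 and KRT86, the relatives of KRT81, differed by 0.94, 0.79 and 0.96 and by 0.83, 0.80 and 0.75, unlike KRT81 itself. A second, dimmer KRT83 probe was not well above background with mock and stayed under -1 with the drugs. It was at least 4.27-fold higher with DAC, at least 4.54-fold with OR-2003 and at least 4.92-fold with OR-2100. KRT85 differed by -0.89, -0.59 and -0.84, and KRT3, KRT73 and KRT78 lay between -0.61 and 0.61. KRT5 is the usual partner of KRT14, whose brighter probe was at least 19.8-fold higher with DAC. The second KRT14 probe was at least 1.36-fold higher with DAC, stayed between -3.85 and -3.53 with the drugs and was not called. KRT6B, a type II keratin of wounded skin, was at least 4.83-fold higher with OR-2003 and at least 7.13-fold with OR-2100, but stayed under -1. KRT79, a type II keratin well above background on all 4 arrays, differed by 1.80, 2.01 and 1.39 and also stayed under -1. The absence of type II calls therefore depends on the level threshold. KRT222, a keratin gene outside both lists, was reduced by all 3 drugs, with differences of -1.80, -1.71 and -1.90 from 0.26 on the mock array.

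In the RefSeq gene order, KRT12, KRT20 and KRT23 follow one another, and KRT15, KRT19, KRT9, KRT14, KRT16 and KRT17 form another row. Neighbours differed from mock by unlike amounts. KRT12 and KRT20 were far above mock while KRT23 was under 2-fold, and KRT14 and KRT17 were induced while KRT16 between them differed by 1.05, 0.79 and 0.29 and stayed under -1. KRT15 and KRT19, at the other end of the row, differed by 0.73 and 0.38 with DAC. KRT8 and KRT18 are neighbours at the end of the type II cluster and differed alike.

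Genes that anchor or modify keratin filaments were mostly not called. Of 18 desmosome and linker genes, 0 were induced and 3 were reduced by all 3 drugs: the desmosomal cadherin DSC3 and the linkers PPL and EVPL. Each drug reduced 5.96% to 6.82% of all named genes, and 11.3% to 12.9% of those that reached -1 on either array. EVPL stood at 3.95 on the mock array and differed by -1.28, -1.19 and -1.11. The list medians were -0.54, -0.39 and -0.53, and the 3 calls were lost under the scaling to probes well above background. Desmoplakin, DSP, which ties keratins to the desmosome, differed by 0.19, 0.23 and 0.08. Of 13 genes for keratin filament regulators, 1 was induced by all 3 drugs, TRIM29, a protein that binds keratin networks, at least 10.9-fold with DAC, a call lost under the same scaling. None was reduced, and the medians were -0.05, -0.05 and -0.13.

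Of 15 genes for other intermediate filaments, 6 were induced by all 3 drugs and 1 was reduced. Each drug induced 5.77% to 5.89% of all named genes, and 10.9% to 11.1% of those that reached -1 on either array. Vimentin, VIM, the filament protein of mesenchymal cells, stood at 0.71 on the mock array and differed by 6.26, 6.12 and 6.21. DES, NES, INA, NEFM and NEFH, the filaments of muscle and of neural cells, were the other 5, and the lens gene BFSP1 was reduced. The medians were -0.04, 1.12 and 0.20, and 10 of the 15 genes were well above background on all 4 arrays. With OR-2003 the median passed 2-fold though 6 of 15 were called, so genes under -1 weighed on it. The medians are not read as a difference between the drugs.

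The label of the cells was checked against marker lists. Of 11 colon epithelial markers, 9 were well above background on all 4 arrays, VIL1 was so with the drugs alone, and CEACAM5 was so on none. All 3 drugs reduced 6 of the 11. Each drug reduced 5.96% to 6.82% of all named genes, and 11.3% to 12.9% of those that reached -1 on either array. Of the 6, EPCAM differed by -1.49, -1.52 and -1.46, CDH1 by -1.09, -1.18 and -1.25 and CLDN4 by -2.13, -2.06 and -2.06. CLDN3, ELF3 and ESRP1 were the others. LGALS4 was induced. The list medians were -1.20, -1.20 and -1.25.

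Of 9 mesenchymal markers, THY1 and VIM were induced, beside 5.77% to 5.89% of all named genes induced by each drug. COL3A1 and LUM were not well above background on any array. Of 7 squamous markers on the array, KRT14 was induced, and KRT5, KRT1 and IVL were not well above background on any array. Of 3 endothelial markers, VWF was induced. The part of these markers in the keratin values was not tested. VIM, KRT14, KRT10, KRT5, KRT1 and DSG3 belong to 2 of these lists each.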

How the data were processed

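The authors deposited the scanner output of 4 one-colour arrays, and the unit used here is the spot intensity after background correction by Agilent Feature Extraction 12.1.0.3, as deposited. The deposited series table held the same intensity values for all 62976 spots. No other normalization had been done. The mock array had a spike-in slope of 0.899, which the software marked as out of range, and the other 3 were in range. The arrays lay on 1 slide and 1 scan run, with 31601 to 33282 probes well above background and 0 saturated gene spots.

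Control spots and outlier spots were left out, log2 intensity was averaged over the spots of a probe, and each array was scaled to its 75th percentile, placed at 0. A probe with over 0.5 of its spots well above background counted as well above background. For a probe dim on the mock array, the fold is the bright level over the higher of the lowest level well above background on that array and the probe's own level. That lowest level is not a strict detection limit. On the OR-2003 array it was -4.38, yet KRT36 at -4.11 was not well above background. RefSeq names (GRCh38.p14) were matched to the accessions of 34892 probes; the array design uses another build, so no probe coordinates are given.

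The rule names all 10 genes, other keratin genes called or at -1 or more, genes called with all 3 drugs in each list, and the 3 genes nearest KRT7, the gene with the largest mean difference among those well above background on all arrays; other genes named were chosen after their values were seen. The genes and lists were chosen with earlier results of these data known. Python 3.11.15, numpy 2.4.6, pandas 2.3.3, R 4.3.3 and limma 3.58.1 were used. The calling was tested on simulated data. The alternatives were the series table, normexp with an offset of 50 (run on the deposited median spot intensity), quantile normalization, 3 other scalings, spot flags, dim probes, fold and level thresholds and probe choice. No test was run, since each condition had 1 array. One marker list is not reported here.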

Additional observations from a re-analysis of the deposited data

How the results depend on the processing

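The number of keratin genes called depended on thresholds and scaling. The main counts of induced genes were 2 with DAC, 2 with OR-2003 and 1 with OR-2100. Under scaling to the percentile of probes well above background they were 1, 1 and 1, all KRT7, because KRT17 then lay under the level threshold. A 4-fold threshold gave 1, 1 and 1, all KRT17, and a level of 0 gave 1, 1 and 0. With OR-2100, quantile normalization gave 3 (KRT7, KRT17 and KRT18), median scaling 2 and no level threshold 2 (KRT17 and KRT20 in both). Scaling to the probes well above background also gave 2 other type I keratins induced by all 3 drugs in place of 5, 0 desmosome and linker genes reduced in place of 3, and 0 keratin filament regulators induced in place of 1. Counts of the 10 genes had 13 alternatives each, counts between drugs 7 and counts in lists 2, and in all 106 values stayed within 1.5 times and 13 did not. A change from 2 to 3 genes counted as within 1.5 times. The 106 include the counts of reduced keratin genes and the counts between drugs, which were 0 in every setting. Of the 13 that moved, 10 were counts of induced keratin genes and 3 were counts in lists. Of the log2 differences of the 10 genes, 226 moved by less than the software error of the difference, 44 moved by more, and the one gene to change sign was KRT81, which was not called in any setting. Many of the 226 had no room to move. The series table held the same intensities, leaving out dim probes kept every value, and keeping outlier spots changed almost nothing. Genes with a single probe also kept their value under the mean of probes. These tallies are therefore not a measure of robustness. The median difference of all probes with OR-2100 ran from -0.34 under median scaling to -0.03 under quantile normalization. No paired analysis was possible because there was 1 array per condition, and for the same reason no replicate could be left out. Dim spots limit KRT17 and KRT20 to folds over a floor under the main background correction, and normexp gave smaller differences.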
